A study of Mus musculus with 8 samples.

Results

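The transcripts described here were the coding (RefSeq NM) transcripts of a mouse neural stem cell culture (NSC) listed at 1 FPKM or more in its RNA library, set against the m6A calls of the same culture. FPKM is a transcript level corrected for transcript length and library size. The threshold held 12925 transcripts of 10681 named genes, out of 18578 coding and 19776 listed transcripts, and 85 of the 12925 had no gene symbol. At the lower edge, 51 of the 99 transcripts from 1 to under 1.05 FPKM carried an NSC call, as did 48 of the 95 from 0.95 to under 1 FPKM, which were not members. A further 565 non-coding transcripts reached 1 FPKM and were not members. Of all 1198 non-coding transcripts listed, at any level, 0 carried an NSC call. The scored regions include the coding sequence, and whether non-coding transcripts could be called at all is not stated. Their lack of calls is therefore not read as a lack of m6A.

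The study held 8 libraries, 1 RNA-Seq and 1 m6A-Seq library for each of 4 cultures of C57BL/6 mice. NSC were taken from fetal brain at E12.5 and used at passage 16, after growth in a neurobasal and DMEM/F12 mixture with N2, B27, BSA, insulin, EGF at 10 ng/ml and basic FGF at 10 ng/ml. The other 3 cultures were embryonic stem cells (ESC, passage 14) and induced pluripotent stem cells (iPSC, passage 22), both kept with leukemia inhibitory factor, and testicular Sertoli cells (SC, passage 2) kept in serum. For the m6A libraries, RNA fragments of about 100 nt were enriched with an m6A antibody. Each transcript carried a yes or no call in 5 regions, which the authors' header names TcSS, 5′ UTR, CDS, TsTS and, last, 3′ UTR. The sources used here do not spell out TcSS and TsTS; the column order places TcSS before the 5′ UTR, and TsTS between the coding sequence (CDS) and the 3′ UTR. With 1 library per assay there was no replicate error and no test, and read depth was unknown. The 95% intervals given for shares are exact binomial (Clopper-Pearson) intervals, which cover counting error over transcripts only, and transcripts of 1 gene are not independent.

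N6-methyladenosine is a methyl mark placed on messenger RNA inside the nucleus by the Mettl3 and Mettl14 methyltransferase with partners such as Wtap. Fto and Alkbh5 can remove it, and proteins with a YTH domain bind it and affect splicing, decay and translation of the transcript. It lies mostly in long internal exons and around the stop codon, in a short consensus of which GGACT is the best known form. Fetal neural stem cells are radial glia-like cells that express Sox2, Pax6, Nes and Notch targets, and grow in EGF and FGF. Proneural factors such as Neurog2 and Neurod1 drive their exit into neuronal precursors.

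The NSC RNA library did not match its label in every respect. Of 24 neural stem cell and radial glia markers in the table, 16 were at 1 FPKM or more in NSC by gene sum, while Sox1, Sox3 and Olig1 were listed at 0, Fabp7 was at 0.380 FPKM and Sox9 at 0.966 FPKM. Of 25 region-specifying brain and spinal cord genes, 12 were listed at 0 and Irx3, at 34.5 FPKM, was the 1 gene above the minimum. Tff3, a secreted trefoil peptide of mucous epithelia, reached 1138 FPKM in NSC and was at 0, 0.0597 and 0 FPKM in ESC, iPSC and SC. The epithelial list as a whole did not follow Tff3. Of its 20 genes 6 were at 1 FPKM or more in NSC, and the median of all 20, 0.4985 FPKM, was below that in ESC, iPSC and SC. Transcripts that were high in the NSC RNA and low elsewhere were mostly uncalled in the NSC m6A library, with 46 of 179 called. Whether the NSC RNA and m6A libraries came from the same cells, and whether calling differed between libraries, was not tested. In bulk RNA, fewer cells of a type and less RNA per cell cannot be told apart.

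The sequences below come from transcripts that were and were not called. Each is the 25-base window centred on the GGACT nearest to the end of the coding sequence, in capitals, at whatever distance it lay. Of these, 3 come from transcripts called in NSC in TsTS, among other regions (Sox2, Nes and Sox4), and 4 from transcripts without any NSC call. Myc was chosen after its values were seen.
Sox2: tgtgagggctGGACTgcgaactgga
Nes: ctggcactgaGGACTtagtgggggg
Sox4: tcgaattcccGGACTattgcacgcc
Neurog2: ccctcgccagGGACTgtatctagag
Neurod1: ccagtcccctGGACTgcccagcccg
Dll3: caggataccgGGACTcgcctgcttt
Myc: cctctgaaaaGGACTtattgaggaa

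These windows were read from GENCODE transcripts on GRCm38, 5′ to 3′ along the transcript. Distances are from the middle base of GGACT to the end of the coding sequence, stop codon included. The Sox2 window spans that end (chr3:34651371-34651395, plus strand), with its GGACT in the 3′ UTR, 8 bases past it, and the Nes window in the 3′ UTR (chr3:87980042-87980066, plus strand), 24 bases past it. The Sox4 window lies in the coding sequence (chr13:28951769-28951793, minus strand), 82 bases before its end. In all 4 uncalled windows the GGACT lies in coding sequence, and the Neurog2 window runs past its end. They are Neurog2 (chr3:127634498-127634522, plus strand) 10 bases before the end and Myc (chr15:61989829-61989853, plus strand) 67 bases before it. The others are Dll3 (chr7:28294429-28294453, minus strand) 188 bases before the end and Neurod1 (chr2:79454351-79454375, minus strand) 399 bases before it. A GGACT near the stop codon was thus present in uncalled Neurog2 and Myc as in called Sox2 and Nes; a match is a description of the letters and not a methylated site.

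Among the radial glia markers, Vim, an intermediate filament protein, was at 708 FPKM in NSC, beside 31.1 in ESC, 75.5 in iPSC and 3438 in SC. Pax6, a homeodomain factor of forebrain radial glia, was at 15.4 FPKM in NSC and at 0.0330, 0.710 and 0.0529 FPKM in ESC, iPSC and SC. Sox2 was at 14.3 FPKM in NSC, below its level in ESC (84.6) and iPSC (119) and above that in SC (0.255). Pax6 and Sox2 therefore ordered the cultures differently, with NSC highest for Pax6 alone. Nes, the intermediate filament used to mark neural progenitors, was at 9.10 FPKM in NSC and highest in SC at 85.9. Hes5, a Notch target, was at 5.01 FPKM in NSC and below 0.2 FPKM in the other 3, and Cd24a was at 116 FPKM in NSC against 8.73, 7.17 and 14.9. Of the 24 markers 10 were highest in NSC, and their median was 6.33 FPKM there, beside 1.39 in ESC, 1.83 in iPSC and 3.21 in SC. The median of all 14697 coding genes in NSC was 6.85 FPKM, close to that of the markers. Of these genes 10820 were at 1 FPKM or more in NSC by gene sum, a larger share than the 16 of 24 markers. Highest in NSC were 3391 of the 14697.

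The proneural and neuroblast genes were the list that stood highest in NSC, with a median of 11.9 FPKM and 18 of 25 genes highest in NSC, against 3391 of all 14697 coding genes. At 1 FPKM or more were 20 of 25, near the share of all coding genes (10820 of 14697). Dll3, a Notch ligand family member induced by proneural factors, was at 162 FPKM in NSC and at 0.853, 0.605 and 0.125 FPKM in ESC, iPSC and SC. Neurod1, a factor of differentiating neuronal and endocrine precursors, was at 125 FPKM in NSC and at 0.387, 0.703 and 0.0120 FPKM in the others. Neurog2, which starts neuronal commitment, was at 44.0 FPKM in NSC, 0.100 in ESC, 0.0715 in iPSC and 0 in SC. All 3 stood far above every other culture in NSC. Hes6, Insm1, Stmn2, Tubb3 and Nhlh1 followed at 94.5, 46.6, 37.9, 37.4 and 28.1 FPKM in NSC, and of these Stmn2 was higher in ESC (101) and iPSC (50.3) and Tubb3 in SC (828). On a log2(FPKM + 1) scale, using the most abundant transcript of each gene, the median difference of the list from the mean of the other 3 cultures was 2.32, with 18 of 25 genes above 1; it was 3.88 with a pseudocount of 0.1 and 0.87 with 5. Over all coding genes that median was −0.01, with 17.8% above 1; the radial glia markers had a median of 0.20, which changed sign with a pseudocount of 5 (−0.17).

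**Figure D1:**
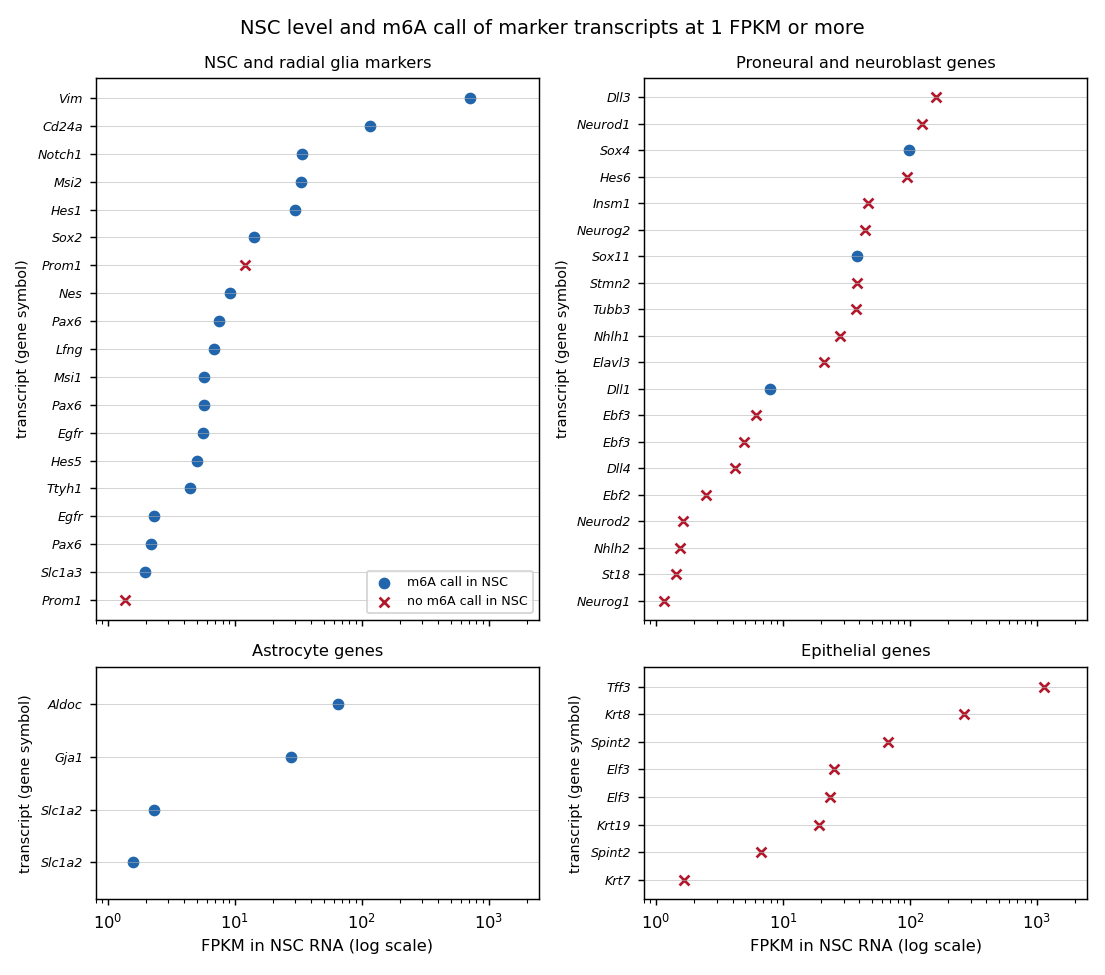
NSC level (FPKM, log axis) of marker transcripts at 1 FPKM or more in 4 lists, 1 mark per transcript, as a blue circle where it has an NSC m6A call and a red cross where it has none; 1 transcript held by both neural lists is not drawn, and each level comes from 1 library, so there are no error bars. Most radial glia markers and all 4 astrocyte transcripts are circles, while all 8 epithelial transcripts and most proneural ones, Dll3 at 162 FPKM and Neurod1 at 125 FPKM among them, are crosses.

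Lists for other cell types were sparse in NSC but not empty, each with a smaller share of genes at 1 FPKM or more than all coding genes. Of 16 pluripotency genes, Klf4 (303 FPKM) and Klf2 (2.41 FPKM) reached the minimum and 8 were listed at 0. Among 20 epithelial genes, 6 reached 1 FPKM, led by Tff3 and by Krt8, a simple-epithelium keratin at 265 FPKM in NSC against 15.05, 11.5 and 3.53 in ESC, iPSC and SC, while Cdh1 and Epcam stood at 0.695 and 0.755 FPKM. Laptm5, a lysosomal protein of blood cells, was at 163 FPKM in NSC and also at 122.9 in ESC. Of 13 neuroendocrine genes 6 reached 1 FPKM, Cpe at 113 FPKM being higher in SC (1072). The counts at or above 1 FPKM were 6 of 16 for mature neurons, 3 of 5 for astrocytes, with Aldoc at 64.9 FPKM and Gja1 at 27.7, and 4 of 8 for oligodendrocytes. They were 4 of 14 for fibroblasts and smooth muscle, 3 of 11 for macrophages and blood, 2 of 12 for Sertoli cells, 2 of 8 for neural crest and placode, 1 of 7 for endothelium and 1 of 5 for retina. Their part in the NSC calls was not tested.

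The calls split the neural lists. In NSC, 17 of 20 radial glia marker transcripts at 1 FPKM or more were called (85%, interval 62.1 to 96.8%), against a background of 59.9% of all members. They included Sox2 in all 5 regions, Nes and Egfr in TcSS, CDS, TsTS and 3′ UTR, and each of the 3 Pax6 transcripts; both Prom1 transcripts were among the 3 without a call. Of 21 proneural transcripts, 3 were called (14.3%, interval 3.05 to 36.3%): Sox4 and Dll1, in all 5 regions, and Sox11 in CDS, TsTS and 3′ UTR. Among all members of the same FPKM and transcript length, 62.1% were called for the first list and 59.2% for the second. Several uncalled proneural transcripts, among them Dll3, Neurod1, Insm1 and Neurog2, were also restricted to the NSC RNA as defined below. Of all 179 restricted transcripts 46 were called. Whether the low share went with the list or with that restriction was not tested. In the other cultures the proneural transcripts that reached 1 FPKM were called in 7 of 7 in ESC, 7 of 9 in iPSC and 5 of 5 in SC. All coding transcripts at 1 FPKM or more were called there in 71.1%, 71.1% and 69.5%. These few were not the same transcripts as the 21 in NSC, since Dll3 and Neurod1, for example, were under 1 FPKM in each of those cultures. Neurod1 and Elavl3, an RNA-binding protein of neuronal precursors, carried calls in iPSC and in ESC respectively, at levels far below those in NSC. Of the smaller lists, 4 of 4 astrocyte transcripts, 4 of 8 mature neuron transcripts and 0 of 8 epithelial transcripts were called, the last with an upper limit of 36.9%. Neuroendocrine transcripts were called in 2 of 6, oligodendrocyte in 2 of 4, pluripotency in 2 of 2 and fibroblast in 1 of 4. The lists with no call were those for macrophages (0 of 4), Sertoli cells (0 of 2), neural crest (0 of 2), regional patterning (0 of 2) and endothelium (0 of 1), all too short to bound the share usefully.

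Across the whole transcriptome of the culture, 7740 of the 12925 members were called in at least 1 region (59.9%, interval 59.0 to 60.7%) and 5185 were not. By region the percentages called were 12.7 in TcSS (1647 transcripts), 5.8 in 5′ UTR (750), 45.4 in CDS (5862), 37.8 in TsTS (4883) and 28.3 in 3′ UTR (3652). The coding sequence and the TsTS region thus held the most called transcripts and the 5′ UTR the fewest. Under the same 1 FPKM rule the share called in any region was 71.1% in ESC (8345 of 11741), 71.1% in iPSC (8589 of 12072) and 69.5% in SC (9288 of 13367).

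Called transcripts were longer and slightly less abundant than uncalled ones. Their median level was 8.59 FPKM against 10.1 FPKM, and their median transcript length 3384 against 2298 bases. The share called rose from 55.3% at 1 to under 2 FPKM to 66.8% at 5 to under 10 FPKM, stayed at 66.2% up to 20 FPKM and then fell, to 43.8% at 50 to under 100 FPKM and 10.9% (13 of 119, interval 5.95 to 17.96%) at 500 FPKM or more. Uncalled transcripts made up 72.1% of the summed FPKM of all members, and of the 100 most abundant members 7 were called. The 119 transcripts at 500 FPKM or more were short, with a median length of 921.5 bases, and 5 of the 9 from 2000 to under 3000 bases were called. Cytosolic ribosomal protein transcripts, 0 of 94 called, had a median of 2106 FPKM. Level, length and gene class were thus not separated in these shares. Across the 12925 members Spearman's rho between FPKM and the number of called regions was −0.10, and across the 12800 with a length it was 0.33 for length and regions and −0.19 for length and FPKM, as a description over transcripts of the same 2 libraries.

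**Figure D2:**
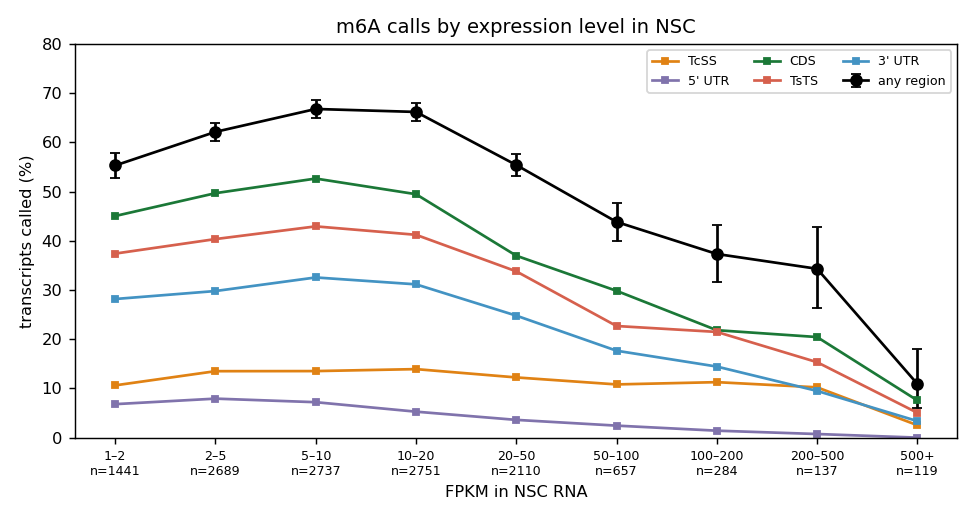
Percent of NSC coding transcripts called, by NSC level in bins of FPKM, with black points for a call in any region (bars are exact 95% intervals over transcripts) and coloured lines for each of the 5 regions. The share for any region peaks at 66.8% between 5 and 10 FPKM and falls to 10.9% at 500 FPKM or more, where CDS calls are at 7.56%. The transcripts in that last bin have a median length of 921.5 bases.

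The most abundant called transcripts were Eef2, a translation elongation factor, at 1776 FPKM, Pkm (pyruvate kinase) at 878 FPKM, Hspa8 (a constitutive heat shock chaperone) at 790 FPKM, Atp5b at 723, Vim at 708 and Tuba1b at 707. Fth1, Eef1b2, Actg1 and Actb completed the 10 highest, at 695, 638, 604 and 598 FPKM. The 10 most abundant uncalled transcripts were Eef1a1, the elongation factor that delivers tRNA, at 7162 FPKM, and 9 ribosomal protein transcripts, headed by Rpl41 at 5442 FPKM and Rplp1 at 5407 FPKM. The highest uncalled transcript exceeded the highest called transcript by several-fold.

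Transcript length went with the calls over the whole range. Of members under 500 bases 17.2% were called, of those from 2000 to under 3000 bases 58.1%, and of those of 6000 bases or more 81.1%. The length of each region went with the call in that region. For 5′ UTRs under 250 bases, 43 of 8673 were called there, against 47 of 104 (45.2%) from 1000 to under 2000 bases. For coding sequences the share rose from 1 of 180 under 250 bases to 80.4% at 4000 bases or more, and for 3′ UTRs it reached 48.5% at 4000 bases or more. The 5′ UTR was therefore seldom called where it was short, which was the usual case.

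Of the 12800 members with a GENCODE sequence, 91.6% held at least 1 GGACT. The search read the transcript strand only, for the letters GGACT. The share called rose with the count, from 34.5% of 1080 transcripts with none to 54.7% with 2 and 79.6% of 1341 with 8 or more. Longer transcripts hold more copies, and the GGACT count per kilobase, pooled over all bases of each set, was 1.11 in called and 1.05 in uncalled transcripts. Within 2000 to under 3000 bases the share called was still 46.7% with none, 54.3% with 1 or 2 and 62.4% with 3 or more. In the 100 bases on each side of the coding sequence end, 25.1% of 12084 transcripts held GGACT, namely 32.8% of those called in TsTS and 20.1% of those not called there. Called in TsTS were 51.2% of transcripts with the motif in that window and 35.1% of those without. Most TsTS calls, 3179 of 4730, thus fell on transcripts with no GGACT in the window. The called Sox2, Nes and Sox4 windows shown above are examples of the first kind, and the Neurog2 and Myc windows of motifs there without any call.

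Most called transcripts carried calls in more than 1 region. There were 2568 called transcripts with 1 region (33.2%), 2277 with 2, 2034 with 3, 735 with 4 and 126 with all 5 (1.63%), a mean of 2.17 regions. All 31 possible combinations occurred. The most frequent was CDS with TsTS and 3′ UTR, in 1373 transcripts (17.7% of the called), followed by CDS alone in 1307 (16.9%), CDS with TsTS in 1044 (13.5%) and TsTS alone in 668 (8.63%). TcSS with CDS, TsTS and 3′ UTR followed with 477, and 3 transcripts had TcSS, 5′ UTR and 3′ UTR, the rarest set. Of transcripts called in the 5′ UTR, 84.9% were also called in CDS, and 6.13% had no other call; of those called in TsTS, 75.0% were also called in CDS, and of those called in 3′ UTR, 72.0% were also called in TsTS. CDS was the region most often called by itself, in 22.3% of its transcripts, ahead of TsTS at 13.7%, 3′ UTR at 10.6% and TcSS at 9.65%.

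**Figure D3:**
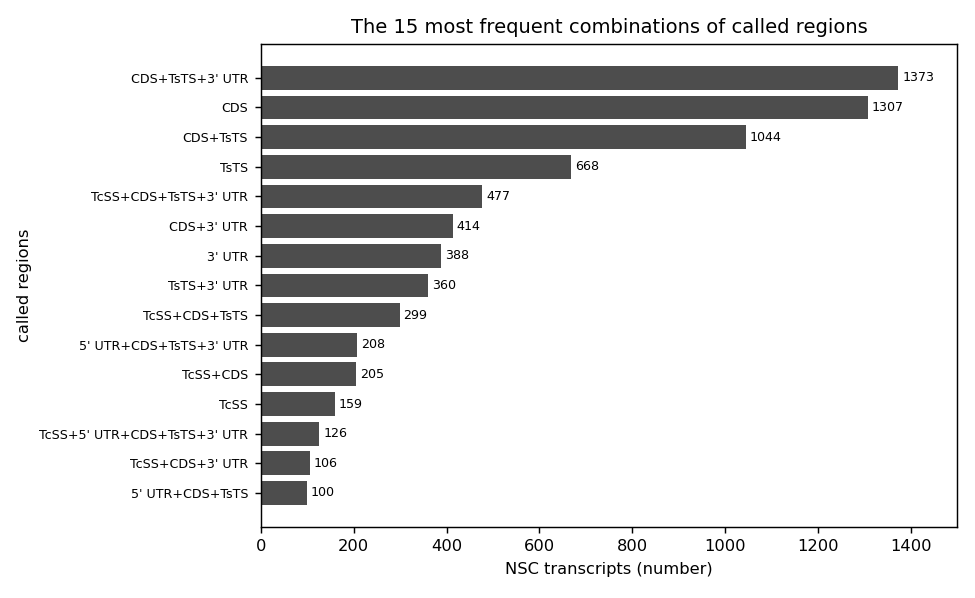
Number of NSC coding transcripts with each of the most frequent combinations of called regions. CDS with TsTS and 3′ UTR leads with 1373 transcripts, and CDS alone (1307) and CDS with TsTS (1044) follow.

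The combinations differed in the length and level of their transcripts. CDS with TsTS and 3′ UTR had a median length of 4018 bases and a median of 7.71 FPKM, CDS alone 3381 bases and 8.76 FPKM, and TsTS alone 2352 bases and 11.4 FPKM. TcSS alone, in 159 transcripts, had the short median of 1793 bases and the high median of 17.7 FPKM, while 5′ UTR with CDS, TsTS and 3′ UTR, in 208, had 4926 bases and 5.42 FPKM. Tubulins fell in several sets. Tubb5 (559 FPKM) led CDS with TsTS and 3′ UTR, before Pebp1 (416), Calr (212), Gnai2 (191) and P4hb (180), Tubb2b (342) and Tuba1a (280) carried TcSS with CDS and TsTS, and Tuba1b carried TsTS alone, as did the metallothionein Mt1 (541). CDS alone was led by Pkm, Hspa8, Atp5b, Vim and Fth1, and CDS with TsTS by Actg1 (604), Ddit4 (271), Txn1 (258), Ptms (236) and Tkt (210). TcSS alone was led by Eef1b2 (638 FPKM), Cox8a (472) and the RNA-binding protein Hnrnpk (332), and 3′ UTR alone by the glycolytic enzyme Tpi1 (344) and by Klf4 (303). The set with all 5 regions had a median length of 4596 bases, and its 10 most abundant members were Sox4 (98.2 FPKM), Anp32e (56.2), Ppp1r9b (48.8), Sulf2 (38.5), Vash1 (26.1), Hcfc1 (25.6), Hnrnpf (21.8), Limd1 (20.7), Nfe2l1 (20.4) and the tyrosine kinase Src (16.5).

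Gene classes were set beside the members of the same FPKM and length, since both went with the calls. This reference includes the transcripts of the class itself, which draws it towards the share of a class that fills its bins. Of 35 classes, 22 had a higher share called than that reference and 13 a lower one, and 2 classes had no call at all. Classes share genes, and none of these differences was tested.

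Cytosolic ribosomal protein genes had no call, whereas mitochondrial ribosomal, respiratory, histone and glycolytic genes were mixed. Of 94 cytosolic ribosomal protein transcripts 0 were called in NSC (upper limit 3.85%). Members of the same level and length, these 94 included, were called in 10.8%, a reference drawn down by the class itself. The same class had 32 of 99 called in ESC, 17 of 97 in iPSC and 22 of 94 in SC. Mitochondrial ribosomal protein transcripts were called in 33 of 83 (39.8%, reference 45.0%), among them Mrpl12 at 69.2 FPKM, and Mrpl52 at 244 FPKM was uncalled. Oxidative phosphorylation subunits were called in 34 of 89 (38.2%, reference 29.3%), Atp5b and Atp5a1 (446 FPKM) in CDS and Cox8a in TcSS, while Cox4i1 (591 FPKM) and Cox7c (570 FPKM) were not. Histone transcripts were called in 20 of 54 (37.0%, reference 30.9%) and in 12 of 17 (70.6%) at 5 FPKM or more, with the replacement histones H3f3a (789 FPKM), H2az1 (447) and H3f3b (411) uncalled and H1f0 (129) and H2ax (67.4) called; these form a multigene family in which reads of close copies may be split. Among glycolysis and citric acid cycle genes 27 of 49 were called (55.1%, reference 48.9%), Pkm, Gpi1 (409 FPKM) and Pgk1 (405) with calls and Gapdh (2635), Aldoa (788) and Ldha (514) without.

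Among signalling lists only the EGF and FGF genes had an interval (68.1 to 89.95%) that left out the reference. Wnt, Notch and Hedgehog shares lay above their reference, and the BMP and TGF-β share below it. Each of these references fell inside the list's interval, namely 61.4 to 88.2%, 53.35 to 81.8%, 41.9 to 91.6% and 40.8 to 74.5% in that order. The culture grew in EGF and FGF, and 46 of 57 transcripts of that signalling list were called (80.7%, reference 67.5%), with 64.9% called in the 3′ UTR. They included the kinases Akt1 (75.6 FPKM) and Map2k2 (37.5) and the small GTPase Nras (32.7), while the ERK kinase Mapk3 (127) and Akt2 (57.5) had no call. In the Notch list 31 of 45 transcripts were called (68.9%, reference 63.7%). The receptor Notch1 (33.9 FPKM), the γ-secretase subunits Ncstn (45.7) and Aph1a (44.7) and the target Hes1 (29.7) were called, whereas the γ-secretase subunit Psenen (116), the sheddase Adam10 (76.4) and the glycosyltransferase Mfng (70.1) were not, and neither were Dll3 and Hes6. Wnt genes were called in 33 of 43 (76.7%, reference 64.2%), with β-catenin (Ctnnb1) called in 2 transcripts at 110.4 and 102.4 FPKM and Dvl1 (61.2) uncalled. Hedgehog genes were called in 10 of 14 (71.4%, reference 66.9%), including the signal transducer Smo (29.6 FPKM) and the receptor Ptch1 (13.7), and BMP and TGF-β genes in 21 of 36 (58.3%, reference 64.9%), with Id1 (77.7) and Smad4 (38.9) called and the ligand Tgfb3 (24.2) uncalled.

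Nuclear regulators were called more often than the reference in most lists. The list of Sox, Fox, Klf, bHLH, Ets, E2f, Stat and Sp factors was called in 84 of 107 (78.5%, reference 65.4%). Klf4, Sox4 and Id1 led the called and Neurod1, Hes6 and Tcf7 (54.0 FPKM) the uncalled. Tcf7, a T-cell factor, was counted in this list although it belongs to none of these families. Immediate early and short-lived transcripts were called in 39 of 51 (76.5%, reference 57.2%) and in TsTS in 68.6%, with Mcl1 (65.2 FPKM) and Jund (63.5) called and both Myc transcripts (579 and 20.8), Dusp5 (50.3) and Gadd45a (44.8) uncalled. Histone-modifying and chromatin-remodelling genes were called in 97 of 127 (76.4%, reference 69.8%), led by Chd4 (97.9 FPKM) and Phc2 (50.3), with Hdac2 (64.4) and Kdm1a (61.9) uncalled. Zfp zinc finger transcripts, the largest class, were called in 220 of 353 (62.3%, reference 64.6%), and DNA repair transcripts in 41 of 56 (73.2%, reference 64.35%), Parp1 (54.7) with and Trp53 (68.8) without a call. Splicing factors and hnRNPs were called in 63 of 94 (67.0%, reference 53.0%) and in TcSS in 31.9%, against 12.7% of all members; Hnrnpa1 (363 FPKM) and Hnrnpk were called and the small Sm proteins Snrpg (561), Snrpe (386) and Snrpd2 (272) were not.

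The m6A machinery was itself mostly called, in 21 of 25 transcripts (84%, reference 66.4%). The methyltransferase Mettl3 (12.01 FPKM), its partner Wtap, the demethylases Fto (26.3) and Alkbh5 (27.6) and the readers Ythdf1, Ythdf2 and Ythdc1 were called in NSC. Both Ythdf3 transcripts, Mettl14 (11.1 FPKM) and Ythdc2 (4.005) were uncalled. Hnrnpa2b1 was called in TcSS, CDS and TsTS, and Hnrnpc in TcSS only.

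Structural, membrane and lipid classes ran in opposite directions. Kinesin transcripts, which encode microtubule motors, were called in 32 of 36 (88.9%, reference 72.0%), each of the 32 in CDS, led by Kif22 (44.2 FPKM), Kifc1 (29.96) and Kif11 (28.5). Kif26a (18.03 FPKM), Kif19a (3.49), Kif5c (1.77) and Kif5a (1.39) were the uncalled ones. Cadherins and protocadherins, adhesion molecules of developing neural tissue, were called in 23 of 26 (88.5%, reference 70.3%) and in TcSS in 50%, led by Pcdhgc3 (57.4 FPKM), Cdh2 (37.5) and Fat1 (16.95). Within them 12 of 13 Pcdhb transcripts were called although they lay between 1.12 and 4.01 FPKM in NSC; none of the 13 exceeded 0.0264 FPKM in ESC, 0.0650 in iPSC or 1.08 in SC. This clustered family was chosen after its values were seen, and its near-identical copies make the split of reads between members uncertain. Cytoskeleton genes were called in 40 of 58 (69.0%, interval 55.5 to 80.5%, reference 49.75%). Cholesterol synthesis genes were called in 25 of 31 (80.7%, reference 56.8%), with Insig1 (139 FPKM) and Srebf2 (83.8) called and Fdps (179) and both Hmgcs1 transcripts (78.4 each) uncalled. In contrast 0 of 17 annexin and S100 transcripts were called (upper limit 19.5%, reference 39.3%), among them S100a10 at 646 FPKM, Anxa2 at 433 and S100a6 at 221, whereas the same class had 9 of 17 called in ESC, 5 of 18 in iPSC and 9 of 20 in SC. Collagens, integrins and laminins were called in 14 of 29 (48.3%, reference 73.0%), Itgb1 (97.0 FPKM) with and Itgb7 (71.3), Lamb2 (59.9) and Lama5 (49.7) without calls; in SC the class had 38 of 42 called. Ion channel transcripts were called in 20 of 42 (47.6%, reference 66.6%), Cacng4 (19.3 FPKM) with and Clcn2 (22.4) and Cacna2d2 (18.8) without.

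The remaining classes are given beside the same reference. Cyclins, cell cycle kinases and replication genes were called in 48 of 85 (56.5%, reference 57.5%), with the replication clamp Pcna (159 FPKM) and the G1 cyclin Ccnd1 (100.4) called and the kinase Cdk4 (319), the cell cycle inhibitor Cdkn1a (234) and Cdc25b (107 and 87.3) uncalled. Those above their reference were ubiquitin-conjugating and deubiquitinating genes with 59 of 85 called (69.4%, reference 63.3%), RNA polymerase subunits with 18 of 32 (56.25%, reference 49.8%), Rab GTPases with 31 of 50 (62%, reference 57.9%), proteasome subunits with 18 of 41 (43.9%, reference 40.8%) and homeobox genes with 27 of 41 (65.85%, reference 64.3%). Those below were solute carriers with 126 of 218 (57.8%, reference 63.4%), aminoacyl-tRNA synthetases with 24 of 45 (53.3%, reference 58.9%), translation initiation and elongation factors with 32 of 69 (46.4%, reference 50.65%), vacuolar ATPase and lysosomal genes with 19 of 40 (47.5%, reference 51.1%) and chaperones with 41 of 77 (53.25%, reference 56.8%).

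**Figure D4:**
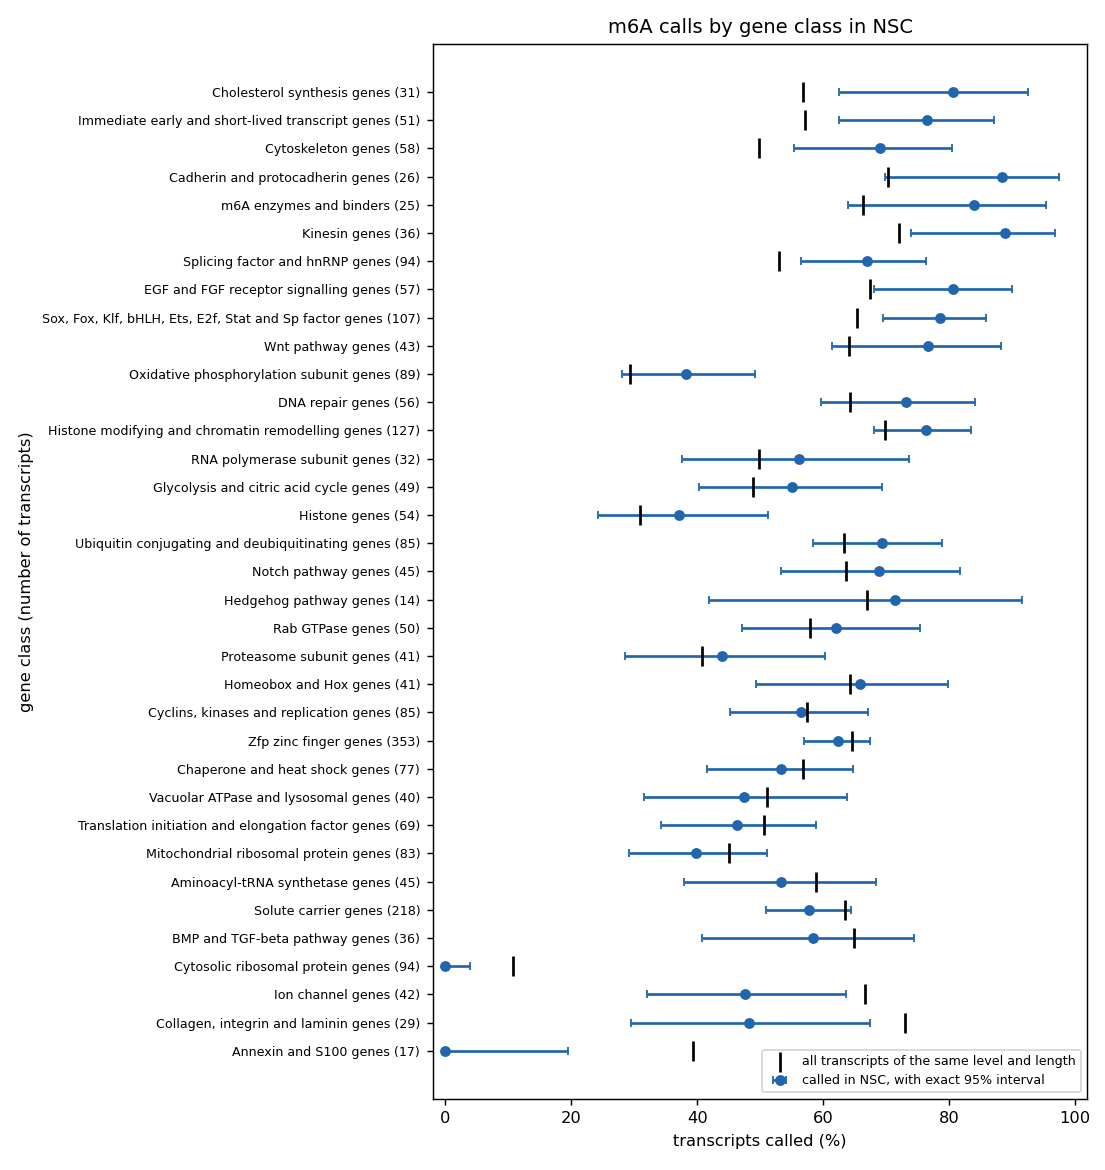
Percent of transcripts called in NSC for each gene class, with exact 95% intervals over transcripts, beside the share called among members of the same FPKM and length. Kinesins (88.9%) and cadherins (88.5%) lie to the right of that share, and cytosolic ribosomal proteins (0 of 94) and annexins with S100 proteins (0 of 17) to the left.

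Transcripts restricted to the NSC RNA were called less often than others of their level. Restricted transcripts were those at 5 FPKM or more in NSC and under 1 FPKM in each other culture, a rule chosen after values were seen. Of 179 such transcripts 46 were called (25.7%, interval 19.5 to 32.8%), against 59.9% of the 8795 members at 5 FPKM or more. At 20 FPKM or more the count was 4 of 37 (10.8%), against 49.1% of members at that level. The same rule gave 306 of 381 (80.3%) in SC against 72.6%; compared with NSC and SC only, it gave 212 of 305 (69.5%) against 74.9% in ESC and 158 of 254 (62.2%) against 70.8% in iPSC. The median length of the 179 was 3117 bases. Called restricted transcripts included Igdcc4 (25.1 FPKM), Btbd17 (22.6), Rassf2 (22.2), Cacng4 (19.3), the neural POU factor Pou3f2 (9.62), the neuronal splicing factor Nova2 (8.56) and Pax6. Uncalled ones included Tff3, Dll3, Neurod1, Insm1 and Neurog2; these examples too were chosen after their values were seen.

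In NSC the share was low where the NSC level was far above the highest level elsewhere. Among transcripts at 5 to under 50 FPKM in NSC it was 62.5% (100 of 160) where the ratio of the 2 levels was under 0.1, 69.1% at 0.1 to under 0.5, 63.8% at 0.5 to under 1, 62.7% at 1 to under 2, 52.3% at 2 to under 10 and 23.1% (40 of 173) at 10 or more. In SC the shares over the same bins were 51.7% (15 of 29), 61.7%, 74.0%, 74.4%, 79.8% and 81.4% (333 of 409). In ESC and iPSC, each compared with NSC and SC, the last bin held 67.0% and 60.1%.

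**Figure D5:**
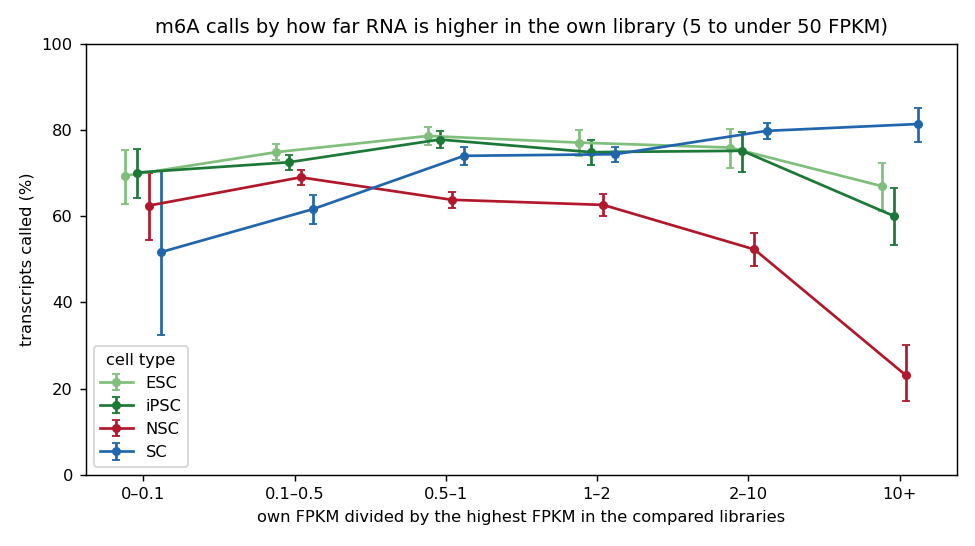
Percent of transcripts called in each culture's own m6A library, by the ratio of its own level to the highest level in the cultures compared, for transcripts at 5 to under 50 FPKM, with exact 95% intervals over transcripts. In NSC the share falls to 23.1% at a ratio of 10 or more, and in SC it rises to 81.4%.

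Of 207 transcripts at 5 FPKM or more in NSC and at least 10 times their level in any other culture, 42 were called in NSC (20.3%), while 89 (43%) were called in at least 1 of the other cultures and 65 were called there but not in NSC. In SC the same rule took 711 transcripts, of which 584 (82.1%) were called in SC and 32 were called elsewhere but not in SC. In ESC and iPSC, compared with NSC and SC only, the corresponding counts were 1 of 334 and 2 of 266. Myc, the growth-promoting transcription factor, was at 579 FPKM in NSC for its main transcript and at 0.807 in ESC, 5.43 in iPSC and 7.07 in SC, and was called in ESC, iPSC and SC but not in NSC. Pomc, the precursor of pituitary peptide hormones, was at 129 FPKM in NSC and at 1.74, 1.13 and 1.28 FPKM in ESC, iPSC and SC, and was called in ESC and SC. Twist1, a mesenchymal and neural crest factor, was at 34.1 FPKM in NSC and at 1.14, 1.55 and 1.96 FPKM in the others, and was called in all but NSC. Each of the 3 was uncalled in the culture with by far its highest RNA level, Pomc in iPSC as well; they were chosen after their values were seen.

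Over the 9081 coding transcripts at 1 FPKM or more in all 4 RNA libraries, 61.9% were called in NSC, 72.7% in ESC, 72.5% in iPSC and 69.1% in SC. Of these 920 (10.1%) were called in all but NSC, where the matching counts were 278 for ESC, 145 for iPSC and 335 for SC. Called in NSC alone were 207 (2.28%), beside 294 in ESC alone, 217 in iPSC alone and 176 in SC alone. By region, NSC stood lowest for TsTS (38.7%, against 51.1% in ESC, 49.96% in iPSC and 44.7% in SC), while its CDS share of 45.4% lay between 43.7% in ESC and 47.3% in iPSC. It was also lowest for TcSS, by little (13.2%, against 13.4% in iPSC), and highest for 5′ UTR, by little (4.77%, against 4.72% in iPSC). Its 3′ UTR share of 28.1% was above ESC (27.2%) and SC (21.96%) and below iPSC (34.9%). Transcripts called in all but NSC were led by Rpl13a (2381 FPKM in NSC), Rps19 (2041), Rps6 (1706), Ptma (1498) and Hsp90ab1 (1362). Those called in NSC alone were led by Mt1 (541), Pebp1 (416), Pgk1 (405), Atp5o (274) and Sumo2 (243).

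Isoforms of a gene were nearly always called together. Of 1621 genes with several members, holding 3780 transcripts, 937 had all called, 624 had none called and 60 (3.70%) were mixed. The 2 Myc and the 3 Pax6 transcripts are examples of each uniform kind. The same regions were listed for all transcripts in 651 of the 937. Overlapping isoforms share reads, so their calls are not separate measurements.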

How the data were processed

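RNA-Seq and m6A-Seq libraries (1 of each per culture, no replicates) were deposited by the authors as a single table of RefSeq transcripts. Per the file headers it holds FPKM values in 4 columns and, in another 20 that are not a numeric measurement but a code (other), a 1 for modified or 0 for unmodified in each of 5 regions. CASAVA, TopHat2 2.0.4 and Cufflinks 2.0.2 are listed with the mm9 build, per the submitters' processing notes, but without roles. How m6A regions were called, and against which control, is not given in the sources used here. The FPKM table keeps no read depth, so precision at a given level is unknown.

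Coding transcripts at 1 FPKM or more in NSC were the members. Symbols came from a RefSeq table of GRCm38.p6 (19446 transcripts) and from GENCODE (104), and 226 transcripts had none. Lengths and sequences came from GENCODE M21 transcripts on GRCm38, matched by RefSeq accession for 12800 members; no mm9 coordinates are given. The share for the same level and length is the mean, over the transcripts of a class, of the share of all members called in their FPKM and length bin, using 9 FPKM and 8 length bins. The transcripts of the class itself count among those members. This share was tested on simulated calls with a random set of members depleted, which does not cover classes crowded into few bins. Marker levels are sums over a gene's transcripts unless stated. Medians of log2 differences use the most abundant transcript.

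Named genes were those given as markers, the 4 highest and the defining genes at 0 of each marker list, the highest called and uncalled transcripts (10 in all, 3 per class, 5 per region combination or overlap group) and all members called in 5 regions up to 10; others are said to be chosen after their values were seen, as were some further members of a list or class, named for their role in it. Members and lists were chosen with earlier results of these data known. Alternatives changed the FPKM minimum, the unit of counting, the pseudocount, the scaling and the restricted rule. Python 3.11.15 with pandas 2.3.3, NumPy 2.4.6, SciPy 1.17.1 and matplotlib 3.10.9 was used. Some genes are not reported here.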

Additional observations from a re-analysis of the deposited data

Results flagged for a closer look

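Both results below are NSC calls on transcripts that the 1 FPKM minimum leaves out, and no explanation of them was tested. Of the 1367 coding transcripts listed at 0 FPKM in the NSC RNA library, 113 carried an NSC m6A call. For 98 of the 113 another transcript of the same gene was at 1 FPKM or more, and 3 were the single transcript of their gene in the table. Of the coding transcripts listed at 0 in their own RNA, 190 of 724 in ESC, 154 of 467 in iPSC and 143 of 989 in SC carried such a call. Each of these shares was larger than that in NSC.

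There were 151 coding transcripts under 1 FPKM in NSC that were called in NSC and in no other culture, and 10 of them are among the 113 listed at 0. They were 151 of 589 transcripts called in NSC alone, and for 77 of them the summed level of the gene was also under 1 FPKM.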

How the results depend on the processing

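No paired analysis was possible because each assay had 1 library per culture, and for the same reason no replicate could be left out. The share of transcripts called in any region was 54.6% at 0.1 FPKM or more, 47.6% with no minimum, 56.9% at 10 FPKM or more and 58.2% counting CDS, TsTS or 3′ UTR calls only. At 0.1 FPKM, TcSS, CDS, TsTS and 3′ UTR shares were 11.3%, 41.5%, 34.4% and 25.7%; with no minimum the 5 shares were 9.79% in TcSS, 4.80% in 5′ UTR, 36.3% in CDS, 30.1% in TsTS and 22.5% in 3′ UTR. At 5 FPKM, 5′ UTR and CDS shares were 4.99% and 44.1%; at 10 FPKM, 5′ UTR, CDS, TsTS and 3′ UTR shares were 3.995%, 40.2%, 34.4% and 25.7%. With 1 transcript per gene the 5′ UTR share was 5.34%; over genes with a single transcript, 5′ UTR and 3′ UTR shares were 4.68% and 27.4%. Among 35 classes, histones moved outside their interval, to 70.6% (12 of 17) at 5 FPKM. Median log2 differences with pseudocounts of 0.1 and 5 were 0.56 and −0.17 for radial glia markers, 3.88 and 0.87 for proneural, −5.55 and −2.23 for pluripotency, −2.49 and −0.50 for epithelial and 0.05 and −0.03 for all coding genes, and with 5 it was −1.42 for Sertoli genes. The all-gene median was −0.04 with summed transcripts and −0.10 with libraries scaled by their median ratio. By gene sum 1 retina gene reached 1 FPKM, against 0 by its most abundant transcript. At 5 FPKM in all 4 RNA libraries 58.5% of transcripts were called in NSC. The share of restricted transcripts called lay between 20.3% and 31.3% over 6 settings chosen after seeing the data, the proneural share was 21.4% at 5 FPKM and 15% with 1 transcript per gene, and the radial glia share 86.7% and 87.5%. Depth was unknown, so an absent call cannot be told apart from a site that was not detectable.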

Other observations

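Some of the calls found in NSC and in no other culture fell on transcripts under 1 FPKM in all 4 RNA libraries. Kcng1, a potassium channel subunit, was at 0.943 FPKM in NSC, also as its gene sum, and was called in CDS and TsTS. Syn2, a synaptic vesicle protein, had a transcript at 0.939 FPKM called in CDS and 3′ UTR, with a gene sum of 1.55 FPKM. Both were chosen after their values were seen. Of all coding transcripts called in NSC, 1101 were under 1 FPKM in the NSC RNA, 1186 in SC, 2070 in iPSC and 2503 in ESC. Of those called in SC, 990 were under 1 FPKM in the SC RNA and 1949 in the NSC RNA. The SC RNA library also had more coding transcripts at 1 FPKM or more (13367) than the NSC library (12925), and these counts are a description of 8 libraries with no test.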
